A study of Drosophila melanogaster with 6 samples.

Results

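The genes described here are the long noncoding RNAs of the Drosophila eye-antennal disc, the larval epithelium that forms the eye, the antenna and much of the head capsule. They are the rows of the deposited gene count table whose symbol carries the prefix lncRNA: or asRNA: (a noncoding RNA antisense to another gene) and whose mean reached at least 5 CPM (read pairs of a gene as a rate over the library total) in one group or the other. The rule took 80 of the 2438 rows with these prefixes, out of 17609 rows in all: 55 lncRNA and 25 asRNA genes. They were thus selected on their group means, and their being expressed is no result. Of the 80, 64 reached 5 CPM in both groups, 9 in the control alone and 7 in the dTet group alone. For the last 16, the group means lay on different sides of the threshold by the rule itself. All 80 passed the filter on low counts and entered the fit, but for these 16 no test result is given. Just inside the threshold lay asRNA:CR45926, asRNA:CR45485 and asRNA:CR45822, with a larger group mean of 5.07, 5.07 and 5.22 CPM. Just outside lay CR44417, CR46003 and CR44677, at 4.98, 4.97 and 4.94 CPM.

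Discs came from third-instar larvae reared at 25 °C. The 3 dTet samples carried ey-Gal4 with UAS-dTet, a transgene of the fly Tet dioxygenase, and the 3 control samples carried ey-Gal4 over w1118, so both groups share the driver and the controls have no UAS transgene. The ey-Gal4 driver acts in the eye field, whereas whole eye-antennal discs were sequenced. The labels call the samples biological replicates, but they do not give the sex of the larvae or how many discs made a sample. The comparison asks which transcripts differ in discs that overexpress dTet, which the study pursued after dTet made eye defects worse with and without the histone mutant H3.3K27M.

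Long noncoding RNAs are transcripts with no long reading frame, and they work, where they are known to work, in several ways. Some hold proteins on chromatin or in nuclear bodies, as roX1 and roX2 do on the male X chromosome and Hsromega does in the omega speckles. Others are precursors from which microRNAs or piRNAs are cut, and many, known only by a CR number, have no described role.

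Libraries held 16395675 to 20242356 counted read pairs. CPM values here and below are scaled by the TMM factors of edgeR, other than those set against the threshold. Tet itself was at 316, 348 and 385 CPM in controls and at 365, 457 and 416 in dTet libraries, a log2 fold change of 0.24 (SE 0.13, adjusted p = 0.244), and these counts do not part the gene from the transgene. Tissue markers differed between groups: the 11 eye field and retina markers all fell, with a summed level of 2000.0 to 2257 CPM in controls and 433.7 to 447 in dTet. Of 6 antenna and head markers, 5 rose and 1 (lz) fell, and 3 of 4 glial markers fell. In bulk samples, fewer cells of a type and less RNA per cell cannot be told apart, and this holds for every noncoding RNA below. Control replicate 1 was the highest or lowest control in 84.2% of genes at 5 CPM or more. Among the 80 noncoding RNAs it was the highest control for 34 and the lowest for 25. With 3 controls, each is the highest or lowest for most genes even where none stands apart, so these counts alone say little. The fit without control replicate 1 called 33.3% of tested genes, against 11.4% with all libraries. Without control replicate 2 or 3 the share was 7.34% or 5.77%.

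The noncoding RNAs were short and simple transcripts, mostly at low level. Their median exon length was 1506 bases, against 2286 for the 7091 protein-coding genes at 5 CPM or more, and 39 of the 80 (48.8%) consisted of 1 exon block, against 8.93% of the coding genes. Per kb of exon, the median control level was 7.56 CPM, against 21.0 for coding genes. Replicates scattered more as well, with a median coefficient of variation of 23.1% over the control libraries, against 13.9% for coding genes. By chromosome arm, 11 lay on 2L, 16 on 2R, 16 on 3L, 14 on 3R, 4 on chromosome 4 and 19 on X. With respect to coding genes, 28 had exons that overlapped coding-gene exons on the opposite strand, 10 overlapped such exons on their own strand, 11 lay within the span of a coding gene without exon overlap (6 on the same strand, 5 on the other), and 31 overlapped none.

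Most of this RNA came from a few genes. The 80 genes took 1.05%, 0.999% and 1.09% of all counts in the 3 control libraries and 0.760%, 0.866% and 0.831% in the dTet libraries, so the groups did not overlap. In every library the top 8 noncoding RNAs held between 83.8% and 87.3% of the counts of the 80, and CR34335 was the highest. This gene, a 361-base transcript on X (3545750 to 3546110) within the span of DIP-alpha, ranked 4 of all genes of the table by control level per kb. CR34335 stood at 3410, 3609 and 3980 CPM in controls and 3118, 3599 and 3333 in dTet. Its groups overlapped, with a log2 fold change of -0.13 (95% interval -0.44 to 0.18, adjusted p = 0.559). CR42862 on 3L was at 1135, 715 and 901 CPM in controls and 872, 1038 and 1127 in dTet (log2 fold change 0.14, adjusted p = 0.637). CR42491 on X, whose exons overlap those of the ribosomal protein gene RpL22 on the same strand, was at 149.9, 259 and 241 CPM in controls and 196, 176 and 183 in dTet (log2 fold change -0.23, adjusted p = 0.449). Neither was called, and the groups of both overlapped. Without control replicate 1, CR42491 passed at -0.45 (adjusted p = 0.00312), in a fit that called 33.3% of all tested genes, against 11.4% with all libraries.

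Among the 64 genes at 5 CPM or more in both groups, 12 passed the edgeR quasi-likelihood test at an adjusted p of 0.05, 3 higher and 9 lower in dTet. That is 18.8% called, against 11.4% of all 9417 tested genes and 9.49% of the 6874 other genes at 5 CPM or more in both groups. Over all 359 tested lncRNA: and asRNA: rows, low ones included, 7.24% were called, 1.67% higher and 5.57% lower, and 25.3% did not overlap. By direction, among the 64, 4.69% were called higher and 14.1% lower. The same shares were 3.77% and 7.64% of all tested genes, and 4.57% and 4.92% of the other genes at that level. The groups' libraries did not overlap for 18 of the 64 (28.1%), against 32.6% of all tested genes and 30.6% of the other genes at that level. The median log2 fold change was -0.22, with a range of -3.81 to 1.23, against 0.01 for coding genes at the same level, and 45 of the 64 lay within 1.5-fold. Among 46 lncRNA genes 3 rose and 7 fell, and among 18 asRNA genes 0 rose and 2 fell.

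**Figure D1:**
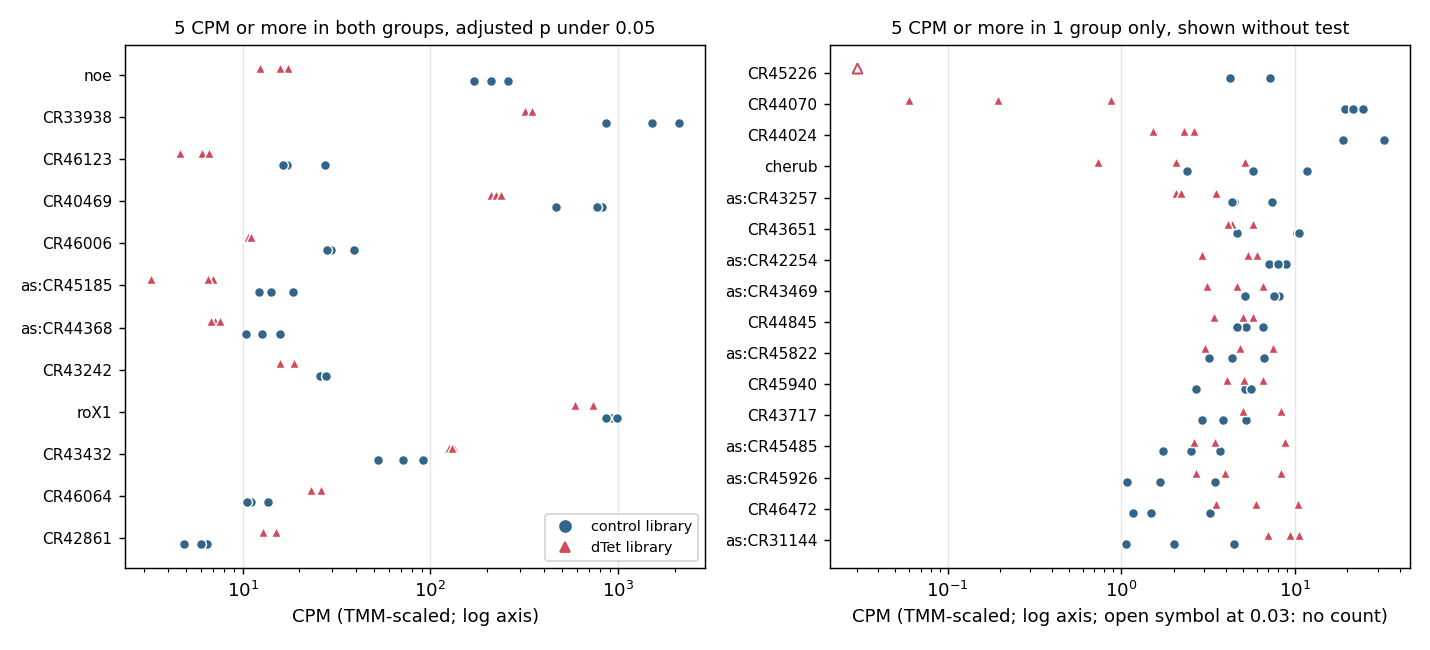
CPM (log axis) in each library for the 12 noncoding RNAs at 5 CPM or more in both groups that passed the test (left) and the 16 at 5 CPM or more in 1 group only, shown without a test (right); circles are control and triangles dTet libraries. For all 12 on the left the 3 dTet libraries lie on one side of the 3 controls, from noe, 14.0-fold lower, to CR42861, 2.35-fold higher.

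The largest fall among these 64 was that of noe, a gene of 1 exon on 3L (17400272 to 17401348, minus strand) that lies within the span of blot, which codes for a transporter of the solute carrier family. Noe was measured at 209, 259 and 172 CPM in controls and at 17.5, 15.9 and 12.4 CPM in dTet. Every dTet library was therefore far below every control. The log2 fold change was -3.81 (SE 0.20, adjusted p = 4.3e-06), or 14.0-fold lower, from 213 ± 44.0 to 15.2 ± 2.61 CPM (SD, n = 3). The gene around it was not called: blot, on the same strand, was at 138 ± 19.6 CPM in controls and 166 ± 11.8 in dTet (log2 fold change 0.27, adjusted p = 0.198).

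Of the 8 noncoding RNAs of highest mean CPM, 3 passed the test, all of them lower in dTet: CR33938, CR40469 and roX1. The share called was 11.4% over all tested genes and 9.49% over the other genes at 5 CPM or more in both groups. With 8 genes, no trait of abundant noncoding RNAs is read from this count. CR33938, on 3R (6699560 to 6700164), lies among the Ccp84 genes, which code for larval and pupal cuticle proteins. Its levels were 857, 2101 and 1517 CPM in controls and 346, 320 and 346 in dTet. The controls spread widely while the dTet libraries lay close together, and the groups did not overlap. The log2 fold change was -2.14 (SE 0.28, adjusted p = 0.00112), or 4.42-fold lower. Its neighbours Ccp84Aa, Ccp84Ab and Ccp84Ac were near 0 in both groups, at mean levels of 0.109, 0.0847 and 0 CPM in controls, and were not tested.

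CR40469 is a transcript of 214 bases near the tip of X (122493 to 122706), 1663 bp from CG17636. It was at 814, 468 and 768 CPM in controls and 209, 222 and 237 in dTet, with no overlap. The log2 fold change was -1.62 (SE 0.20, adjusted p = 0.000753), or 3.07-fold lower. CR46123, a single exon of 368 bases on 3R (1366234 to 1366601) opposite the span of Myo81F, was at 27.5, 17.2 and 16.5 CPM in controls and 6.10, 4.64 and 6.60 in dTet. It fell by 1.82 on the log2 scale (SE 0.26, adjusted p = 0.00201), while Myo81F was at 1.75 CPM or less in both groups.

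**Figure D2:**
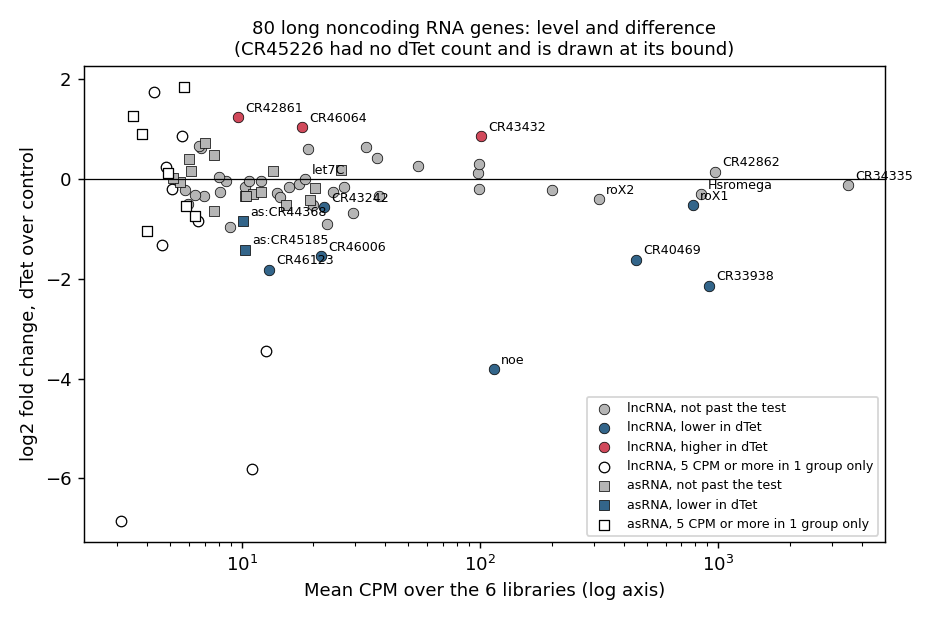
Log2 fold change (dTet over control) against mean CPM over the 6 libraries (log axis) for the 80 noncoding RNAs; circles are lncRNA and squares asRNA genes, blue and red mark those lower and higher by the test, and white marks those at 5 CPM or more in 1 group only. The abundant CR34335, CR42862 and Hsromega lie close to 0, whereas noe, CR33938 and CR40469 lie well below it.

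The roX genes of X code for the RNAs that join the Male-Specific Lethal (MSL) complex, which raises transcription of the X chromosome in males. RoX1 (3857230 to 3862697, minus strand) was at 925, 856 and 989 CPM in controls and at 598, 735 and 590 in dTet. The groups did not overlap, and roX1 fell by 0.53 on the log2 scale (SE 0.13, adjusted p = 0.0335), or 1.44-fold. The call ended without control replicate 3 (adjusted p = 0.117), without dTet replicate 1 (0.127) and without dTet replicate 3 (0.158). RoX2 (11579065 to 11580432, plus strand) was at 345, 267 and 464 CPM in controls and 293, 268 and 251 in dTet, so its groups overlapped. Its log2 fold change of -0.41 (95% interval -0.82 to 0.01, adjusted p = 0.183) did not pass.

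Transcripts of genes that code for proteins of the same pathway were counted beside them. Of 10 dosage compensation genes, 0 passed edgeR's test, DESeq2 or limma-voom, and 1 had an unadjusted p under 0.05, with a median log2 fold change of 0.07. The mRNA of the subunit msl-2, whose protein is made in males alone, was at 35.1 ± 5.43 CPM in controls and 37.4 ± 0.448 in dTet (log2 fold change 0.09, adjusted p = 0.716). Of 9 sex determination genes 0 passed by any of the 3 tools, and 3 had an unadjusted p under 0.05. EdgeR called 11.4% of all tested genes, a share at which lists this short would hold few calls. Over the 1563 tested genes on X, log2 fold changes had a median of -0.0013. The share of male larvae was not given, and the 113 Y-linked rows held 28, 1 and 13 counts in controls and 23, 17 and 27 in dTet, too few to read it; its part in the roX values was not tested.

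Hsromega makes nuclear transcripts that collect RNA-binding proteins in omega speckles and accumulate after heat shock. It was at 665, 1004 and 1126 CPM in controls and 609, 911 and 737 in dTet. The groups overlapped (log2 fold change -0.31, 95% interval -0.79 to 0.17, adjusted p = 0.373). Without control replicate 1, the lowest control, it passed at -0.52 (adjusted p = 0.0180), in a fit that called 33.3% of all tested genes. Of 9 omega speckle protein genes 0 passed edgeR's test or limma-voom, 1 (nonA) passed DESeq2 and 1 had an unadjusted p under 0.05. The alphagamma-element (CR32865), a heat-inducible noncoding unit 7559 bp from the Hsp70Ba copy on 3R, was at 9.15, 51.3 and 29.3 CPM in controls and 5.202, 21.4 and 21.2 in dTet, and its groups overlapped too (log2 fold change -0.90, adjusted p = 0.363). Without control replicate 1 it passed at -1.35 (adjusted p = 0.0450), and with the replicate block at -0.85 (adjusted p = 0.0304). In both groups replicate 1 was the lowest for it, and also for the summed Hsp70 genes, which stood at 315, 849 and 484 CPM in controls and at 279, 643 and 623 in dTet. Read pairs that map to several of the near-identical Hsp70 copies were left out of the counts, so these levels are uncertain. Of 17 heat shock response genes, edgeR called 2: Hsp67Ba rose (log2 fold change 0.66, adjusted p = 0.00991) and Hsp67Bc fell (log2 fold change -2.07, adjusted p = 0.00204). Over all tested genes it called 11.4%. DESeq2 also called Hsc70-4, at 0.25 by edgeR (adjusted p = 0.232).

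Precursors of microRNAs form the largest group with a known product. Within 13 of the 80 genes lay a microRNA hairpin on the same strand, 12 of them at 5 CPM or more in both groups; those named here beside let7C, CR43651, Hsromega and CR46006 were chosen after their values were seen. Of these 12, 1 fell and 0 rose, a share called of 8.33%, near the 11.4% of all tested genes and the 9.49% of other genes at that level; over the 13, log2 fold changes had a median of -0.16. The one that fell was CR46006, which RefSeq lists as the primary transcript of mir-276b and mir-276a, on 3L (10323501 to 10367450). Only the mir-276a hairpin was found within these coordinates on its strand. CR46006 was at 39.0, 29.4 and 28.1 CPM in controls and at 11.2, 10.7 and 11.1 in dTet. The dTet libraries were almost equal and all below the controls. It fell by 1.55 on the log2 scale (SE 0.17, adjusted p = 0.000440), or 2.93-fold.

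The other 11 of these genes at this level were not called. Let7C, the joint precursor of let-7, miR-125 and miR-100, which time the larval to adult transition, was at 20.6, 13.8 and 21.0 CPM in controls and 19.7, 18.0 and 17.4 in dTet (log2 fold change -0.01, 95% interval -0.44 to 0.43). CR43334 holds bantam, a growth-promoting microRNA of the discs, and was at 48.4, 40.7 and 61.9 CPM in controls and 50.2, 70.7 and 59.0 in dTet (log2 fold change 0.25, adjusted p = 0.384). CR45916, with mir-9a, was at 119, 60.7 and 88.0 CPM in controls and 112, 103 and 112 in dTet (log2 fold change 0.29, adjusted p = 0.392). For all 3 the groups overlapped. Without control replicate 1, CR43626 (mir-282), CR43650 (mir-8) and CR45916 passed as higher, at log2 fold changes of 0.81, 1.06 and 0.54. That fit called 33.3% of all tested genes, against 11.4% with all libraries. With all libraries the first of these was at 47.2, 24.6 and 23.1 CPM in controls and 43.4, 46.3 and 37.0 in dTet, so control replicate 1 lay with the dTet libraries. Mature microRNAs were not measured by these libraries as counted here. Of 7 tested genes of the let-7 heterochronic pathway, ab rose (log2 fold change 0.65, adjusted p = 0.0402) and Eip93F fell (log2 fold change -2.66, adjusted p = 0.00282) by edgeR, which called 11.4% of all tested genes. DESeq2 called chinmo and tai as well, and limma-voom called chinmo (log2 fold changes of -0.51 and 0.30 by edgeR, adjusted p = 0.0595 and 0.0871).

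**Figure D3:**
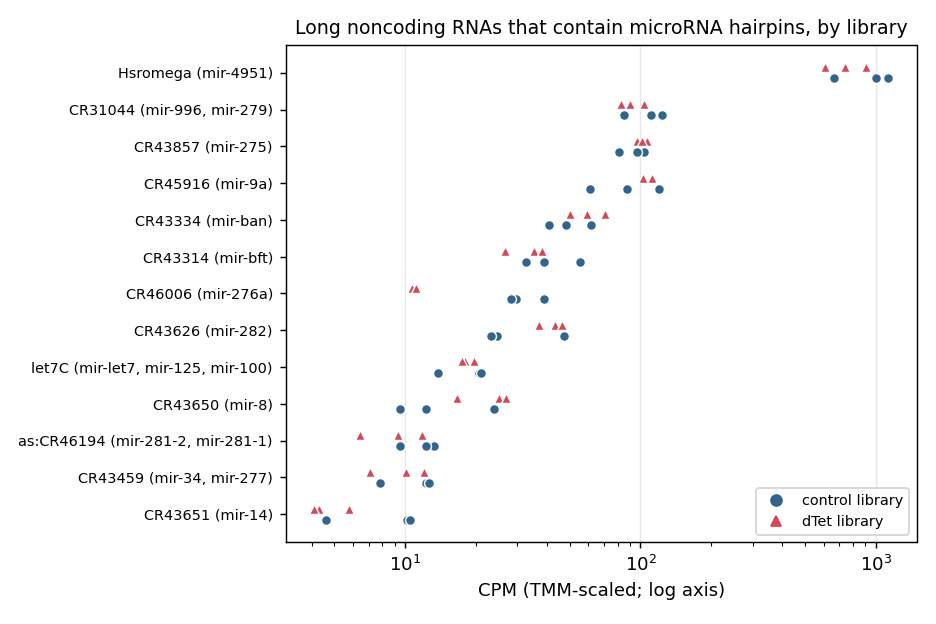
CPM (log axis) in each library for the 13 noncoding RNAs that hold a microRNA hairpin on their strand, named in brackets; circles are control and triangles dTet libraries. The dTet libraries of CR46006 lie at 10.7 to 11.2 CPM, below its controls at 28.1 to 39.0, and control and dTet libraries of the other genes overlap.

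The flamenco locus (flam, X, 21631891 to 21790731) is a piRNA cluster that silences retrotransposons in the somatic cells of the ovary. Its counted exons were at 39.9, 26.5 and 42.1 CPM in controls and 12.4, 31.2 and 23.7 in dTet. The groups overlapped, and the log2 fold change of -0.69 did not pass (adjusted p = 0.178). Pairs that map to several places were left out, and flamenco is made of repeats, so its level is uncertain.

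The noncoding RNAs that rose were 3, all with a CR number in the table. CR43432, listed in RefSeq as marge, lies on 3L (14976626 to 14977631) in the Bearded complex, 585 bp from Ocho; the small proteins of that complex restrain Notch signalling. It was at 52.8, 91.7 and 71.1 CPM in controls and at 125, 134 and 130 in dTet, with no overlap. The log2 fold change was 0.85 (SE 0.18, adjusted p = 0.0149). The call ended without control replicate 3 and without each dTet replicate, with adjusted p values up to 0.0716. Brd, 3427 bp away, went the other way and fell by 0.99 on the log2 scale (adjusted p = 0.0407). The nearer Ocho was not called (log2 fold change -0.33, adjusted p = 0.169). Nor was CG3349, 1988 bp away and at 0.339 CPM in controls and 0.757 in dTet (log2 fold change 1.13, adjusted p = 0.601).

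CR46064 on 2R (4782892 to 4785543) was at 13.7, 11.2 and 10.6 CPM in controls and 23.0, 23.2 and 26.3 in dTet, a log2 fold change of 1.03 (SE 0.17, adjusted p = 0.00412). CR42861 on X (13744928 to 13745476), which lies 100 bp from Pdcd4, was at 4.85, 6.47 and 5.99 CPM in controls and 15.01, 12.7 and 12.9 in dTet. Its log2 fold change was 1.23 (SE 0.23, adjusted p = 0.00754), and Pdcd4 stood at 328 ± 70.5 CPM in controls and 353 ± 9.17 in dTet. For both noncoding genes every dTet library was above every control, and no alternative ended the call.

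The remaining calls among the 64 were falls at low level. Transcript CR43242 on 2L was at 26.1, 25.9 and 27.7 CPM in controls and 15.8, 19.0 and 18.8 in dTet (log2 fold change -0.57, SE 0.15, adjusted p = 0.0353). The antisense gene asRNA:CR45185, opposite the chitinase gene Cht6 on X, was at 18.7, 12.3 and 14.1 CPM in controls and 6.995, 6.56 and 3.27 in dTet (log2 fold change -1.42, SE 0.32, adjusted p = 0.0200). For asRNA:CR44368, opposite CG18324 on 2R, the levels were 15.9, 12.7 and 10.4 CPM in controls and 7.17, 6.77 and 7.62 in dTet (log2 fold change -0.85, SE 0.23, adjusted p = 0.0447). All 3 had groups that did not overlap. The call of asRNA:CR45185 ended without control replicate 3 (adjusted p = 0.0619), that of CR43242 without each replicate other than control replicate 1 (0.0725 to 0.130), and that of asRNA:CR44368 without each of the 6 (0.0567 to 0.118).

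The 16 other genes crossed the threshold of 5 CPM in 1 group only. By the rule their group means lie on different sides of it, and the sizes of their differences were not tested. In asRNA:CR45822 the difference was small, at 4.70 CPM in controls and 5.22 in dTet before scaling. The widest difference was that of CR45226 (3R, 26519580 to 26522279, opposite the span of plum), at 4.20, 7.25 and 7.19 CPM in controls and with no count in any dTet library. Set against 3 counts over the dTet libraries together, it was at least 114.9-fold lower. CR44070 (2R, 9636996 to 9637673), within the span of the matrix metalloproteinase gene Mmp2 on the same strand, was at 19.4, 21.5 and 24.4 CPM in controls and 0.0598, 0.874 and 0.195 in dTet. Its host gene fell as well: Mmp2 went from 682 ± 25.8 to 48.8 ± 0.697 CPM, a log2 fold change of -3.80 (SE 0.11, adjusted p = 2.15e-07). CR44024 (chromosome 4, 427331 to 431769) was at 32.5, 18.5 and 18.8 CPM in controls and 2.63, 2.29 and 1.52 in dTet, while lgs, a Wnt pathway gene 5187 bp away, was at 195 ± 40.4 and 221 ± 9.89 CPM.

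The other 13 of these genes had a larger group mean between 5.07 and 9.13 CPM before scaling. Cherub, which in larval neural stem cells is segregated at division and is tied to brain tumours, was at 5.69, 11.8 and 2.40 CPM in controls and 5.14, 2.08 and 0.733 in dTet, and its groups overlapped. The mir-14 precursor CR43651 was at 4.62, 10.2 and 10.504 CPM in controls and 5.74, 4.32 and 4.11 in dTet, and it too overlapped. Among the 7 above the threshold in dTet alone, asRNA:CR31144, opposite the ribosomal protein gene RpL3, was at 4.43, 1.06 and 2.00 CPM in controls and 6.995, 9.34 and 10.51 in dTet. CR46472 on X was at 3.22, 1.17 and 1.48 CPM in controls and 5.92, 3.496 and 10.4 in dTet. In asRNA:CR31144 and CR46472 every dTet library was above every control. CR43717, within the span of ex (expanded, of the Hippo pathway), was at 2.89, 3.85 and 5.195 CPM in controls and 5.02, 8.41 and 8.26 in dTet, and its groups overlapped. Among those above the threshold in controls alone, asRNA:CR42254, opposite BEAF-32, was at 7.09, 8.81 and 7.99 CPM in controls and 2.93, 6.01 and 5.33 in dTet. The levels of asRNA:CR43257, opposite ETH, were 4.43, 4.35 and 7.36 CPM in controls and 3.53, 2.08 and 2.199 in dTet. In both, every dTet library was below every control, whereas those of asRNA:CR43469, opposite Balat, overlapped, at 8.07, 7.58 and 5.14 CPM in controls and 3.11, 4.64 and 6.55 in dTet.

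Each noncoding RNA was then set beside the coding gene that it overlaps or lies next to. Over the 68 genes whose partner was tested, the log2 fold changes of noncoding gene and partner gave a Spearman's rho of -0.05. Pearson's r was 0.17, and both values are a description across genes that share the same 6 libraries. The 68 include genes at 5 CPM or more in 1 group only, whose group means lie apart by the rule itself. Among them, CR45226 enters r with a fitted change that rests on no dTet count. Genes at 5 CPM or more in both groups were not correlated on their own, so no relation is read from these values. Of the 68 tested partners, edgeR called 5, Mmp2 among them, and over all tested genes the share called was 11.4%. Of the 12 called genes at 5 CPM or more in both groups, 9 had a tested partner, and 1 of these partners was called. This was CG18324, which fell by 1.07 on the log2 scale (adjusted p = 0.0125) beside asRNA:CR44368. In 3 other pairs edgeR called the coding gene and not the noncoding one, which was picked after its values were seen. CG15765 fell by 4.62 on the log2 scale (adjusted p = 0.00255), while CR43264, which lies opposite its span, was at 24.6, 31.8 and 21.1 CPM in controls and 50.2, 33.4 and 37.6 in dTet (log2 fold change 0.65, adjusted p = 0.0720). CR43264 passed as higher with DESeq2 (0.64, adjusted p = 0.0286), with no filter on low counts (adjusted p = 0.0407) and without control replicate 2 (0.82, adjusted p = 0.0466). The gene mura fell by 0.98 on the log2 scale (adjusted p = 0.0144) beside CR42549, at 23.7, 24.2 and 31.6 CPM in controls and 22.5, 24.9 and 18.9 in dTet. CG4199 rose by 0.48 (adjusted p = 0.0331) opposite asRNA:CR44382, at 12.6, 12.6 and 11.9 CPM in controls and 12.6, 6.50 and 10.997 in dTet.

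**Figure D4:**
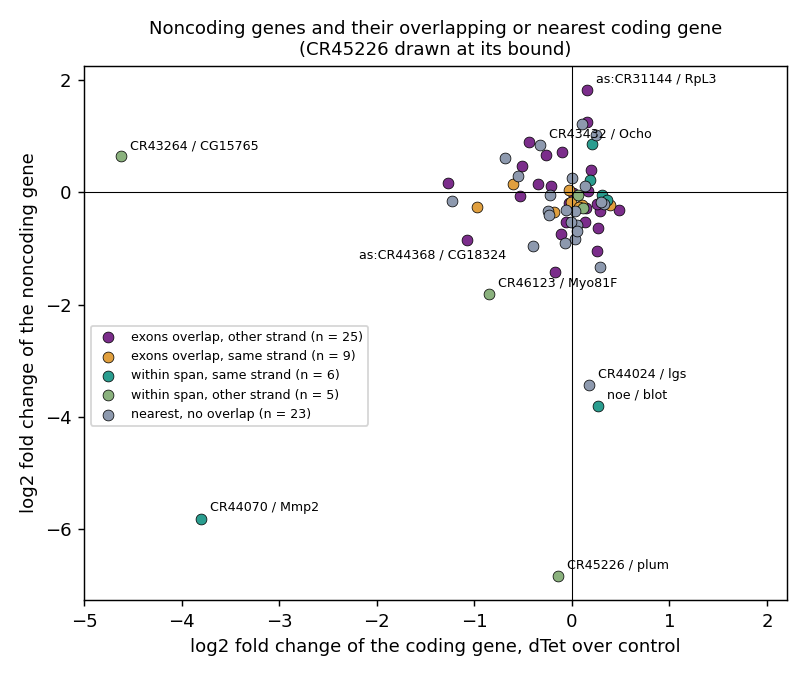
Log2 fold change (dTet over control) of each noncoding RNA against that of its overlapping or nearest coding gene, for the 68 pairs with a tested partner, coloured by position. CR44070 and Mmp2 are both far below 0, noe and CR44024 are far below 0 with a partner near 0, and CG15765 is far below 0 opposite CR43264.

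How many pairs of the other strand the strand setting lets through was not measured, so antisense genes were set beside the genes opposite. Of the 28 noncoding RNAs with exons opposite coding exons, 18 were below their partner per kb in controls, 3 at under 1% of it and 20 at over 10%. To see how low such rows can lie, the lncRNA: and asRNA: rows covered for at least 50% by exons of a coding gene of 100 CPM per kb or more were taken, 17 in all. These rows may be transcribed themselves, so their level does not measure what the strand setting lets through. They stood at a median of 0.348% of their partner per kb, and the lowest at 0.148%. Library by library this median was 0.508%, 0.159% and 0.250% in controls and 0.570%, 0.552% and 0.665% in dTet. The group mean was higher in dTet for 15 of the 17. Every dTet library was above every control for 5, whereas for asRNA:CR45925, opposite cer, every dTet library was below every control. By CPM, the groups' libraries did not overlap for 32.6% of all tested genes, counting either direction. With 17 rows, no group difference is read from those without overlap. Some of the 17 rest on few counts, such as asRNA:CR44160 with 14 over the 6 libraries.

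Of the 17, 3 are among the 80 noncoding RNAs: asRNA:CR31144, asRNA:CR45926 opposite Nap1, and asRNA:CR45874 opposite RpS9, the last named after its values were seen. Per kb, asRNA:CR31144 stood at 0.615%, 0.117% and 0.207% of RpL3 in controls and 0.717%, 0.952% and 1.12% in dTet. For asRNA:CR45874 the share of RpS9 was 0.429%, 0.159% and 0.265% in controls and 0.542%, 0.518% and 0.511% in dTet. These 2 shares were lowest in control replicate 2 and higher in every dTet library than in any control. The median of the 17 showed the same order, but it includes these 2 genes. In control replicate 2 it is the value of asRNA:CR45874 itself. The rule also took asRNA:CR31144 for its level in dTet alone. The share of asRNA:CR45926 went otherwise, at 0.714%, 0.274% and 0.197% of Nap1 in controls and 0.640%, 0.450% and 1.34% in dTet, so that its groups overlapped. Whether pairs of the coding strand enter the values of the 3 genes was not tested.

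**Figure D5:**
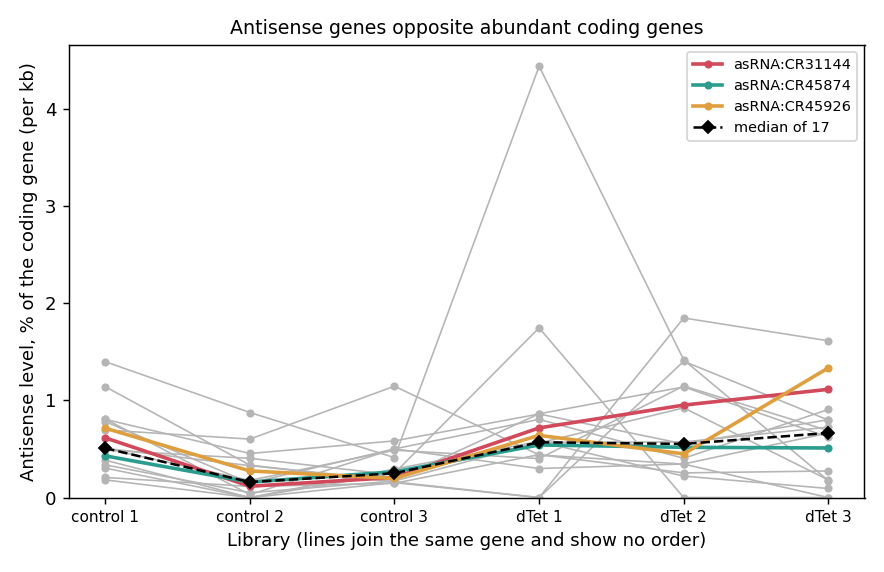
Level per kb of 17 antisense genes as a percentage of the abundant coding gene opposite, in each library; coloured lines are the 3 that belong to the 80 noncoding RNAs, grey lines the other 14, and the dashed line is the median. The median is lowest in control replicate 2, at 0.159%, and highest in dTet replicate 3, at 0.665%.

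Genes of nuclear RNA decay and noncoding RNA processing were measured as well. Of 19 tested, 0 rose and 1 fell by edgeR: Ski6, an exosome subunit, by 0.76 on the log2 scale (adjusted p = 0.0140), and DESeq2 also called Rat1 and Nrd1. Over all tested genes edgeR called 11.4%. Markers of other tissues that could share a dissection were present. Summed fat body markers ranged from 601 to 2581 CPM in controls and 412 to 1474 in dTet, and summed salivary gland markers from 24.9 to 66.0 in controls and 1.26 to 17.7 in dTet. Hemocyte markers ranged from 260 to 392 CPM in controls and 180 to 203 in dTet, with PPO1 and PPO2 lower among 7 tested. Muscle markers were higher in dTet, at 894 to 1278 CPM summed against 765 to 855 in controls, with Mhc and bt called by edgeR among 8 and 5 of the 8 called by DESeq2. Peripodial and margin markers were also higher, at 266 to 304 CPM against 165 to 182, with drm and wg called among 3. The part of these tissues in the noncoding RNA values was not tested.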

How the data were processed

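Total RNA of eye-antennal discs was made into stranded libraries, per the labels' protocols, for 3 control and 3 dTet samples. Reads were checked with FastQC 0.12.1 and aligned with HISAT2 2.2.0 to dm6, per the submitters' processing notes. The deposited values are raw counts of read pairs over exons per gene symbol, which the authors made with featureCounts 2.0.6 on FlyBase 6.45 with strand setting 2, per the file headers. The command in the header sets no option for multimapping or multiply assigned pairs; such pairs were left out, which lowers repeats and same-strand overlaps. Pairs are not molecules, so bounds cover counting error only.

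Counts were tested with edgeR 4.0.16 (R 4.3.3): filterByExpr, TMM, quasi-likelihood, no covariate, Benjamini-Hochberg over 9417 genes, threshold 0.05. A log2 fold change is dTet over control. DESeq2 1.42.0, limma-voom (limma 3.58.1), other scalings, no filter, a replicate block and each library left out were alternatives. The code was tested on simulated counts. The threshold of 5 CPM uses plain library totals. Coordinates are those of the table. Names and neighbours came from RefSeq and Ensembl tables, which matched 17313 symbols (17310 at the same coordinates) and left 296 without a match; 79 of the 80 genes matched. Named are every gene with a name of its own, the 8 of highest CPM, the up to 10 largest called rises and falls, up to 8 each way of those at 5 CPM or more in 1 group, the 3 on each side of the threshold, and partners. The genes and lists were chosen with earlier results of these data known.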

Additional observations from a re-analysis of the deposited data

How the results depend on the processing

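Of the 64 noncoding RNAs at 5 CPM or more in both groups, 12 were called; DESeq2 size factors, upper-quartile scaling and limma-voom also gave 12, and no filter and DESeq2 gave 13, all with the same 12 among them. Leaving out 1 replicate gave 7 to 20 (2 to 7 higher, 5 to 13 lower): 7 without control replicate 3, and 20 without control replicate 1, with 11 of the 12. Without control replicate 1, 33.3% of all genes tested were called, against 11.4%. Over all genes, 1074 were called, 355 higher and 719 lower; DESeq2 called 1733, of which 658 were higher, and leaving out 1 replicate gave 560 to 3231 calls, 131 to 1408 higher and 424 to 1823 lower. Calls of noe, CR33938, CR40469, CR46123, CR46006, CR46064 and CR42861 ended in no alternative. Same-numbered libraries did not deviate together (correlations 0.03, 0.02 and -0.10), so the numbers are not taken to pair samples; the replicate block gave 10 calls, 9 of them among the 12, ended those of asRNA:CR44368 (-0.83, adjusted p = 0.0798), CR43242 (-0.58, 0.0662) and roX1 (-0.53, 0.0857), and called the alphagamma-element (-0.85, 0.0304). Log2 fold changes near 0 turned sign: let7C became 0.0052 with limma-voom and 0.014 with the block, and leaving out 1 replicate gave -0.19 to 0.091 for let7C, -0.27 to 0.42 for asRNA:CR45822, -0.013 to 0.31 for CR42862, -0.039 to 0.41 for CR45940 and -0.37 to 0.0100 for CR43459. The cause was not tested. The motif search planned for promoters was not run. Genes near 5 CPM rest on few counts, so small differences among them can go undetected.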

Other observations

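Among the 279 tested lncRNA: and asRNA: rows under 5 CPM in both groups, 10 were called by edgeR, 8 lower and 2 higher in dTet. The share called was larger over all 9417 tested genes, at 11.4% (7.64% lower and 3.77% higher). A row this low can pass the filter on low counts through 1 group alone, so they are given as counts; those named were chosen after their values were seen. CR44909 had 36, 31 and 21 counts in the control libraries and none in dTet, CR43608 had 22, 25 and 25 and none in dTet, and CR44946 had 22, 22 and 17 and none in dTet. More counts were seen for CR44776, with 31, 121 and 79 counts in controls and 9, 5 and 7 in dTet, and asRNA:CR43425, with 136, 60 and 70 and 12, 24 and 22. The 2 that were higher were near 0 in controls: asRNA:CR43767 had 2, 1 and 0 counts in controls and 41, 18 and 17 in dTet, and CR44043 had 6, 1 and 4 and then 30, 21 and 28. Noncoding RNAs of the bithorax complex were at or near 0: iab4 and iab8 had no count in all libraries, and bxd reached a mean of 0.0910 CPM in controls, without TMM scaling.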
